A study of Mus musculus with 16 samples.

Results

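Newly synthesized RNA was compared between mouse E14 embryonic stem cells that overexpress Tir1 and BirA and plain wild-type (WT) E14 cells, in 6 of the 16 libraries of the series. The 6 libraries were chosen by their labels: in each of 3 sequencing projects, 1 library of the Tir1/BirA line and 1 library of plain WT cells. Both lines carry the WT genotype, so the comparison shows how this Tir1/BirA line differs from these cells without the transgenes. Every line, plain WT included, received auxin (IAA) for 24 h and was grown on gelatine in serum with leukaemia inhibitory factor (LIF), the Gsk3 inhibitor CHIR99021 and the Mek inhibitor PD0325901. Cells took up 4-thiouridine (4sU), an analogue of uridine, for the last 15 min of culture and the labelled RNA was purified, so the reads come largely from transcripts made in that interval. In project 1 total RNA of each line was also sequenced, with 1 library each. The other 8 libraries are mutants of the coactivator complexes SAGA and ATAC (AID-Tada3, AID-Yeats2, AID-Zzz3 and Supt7l-/-, 2 clones each). The labels do not give the promoter of the transgenes, the number of clones behind the Tir1/BirA line, or whether the line was derived once for all projects. The transgenes and the history of the line therefore cannot be told apart. The p-values measure the spread over 3 pairs of libraries, moderated by the spread of other genes.

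Tir1 is a plant F-box protein. In the presence of auxin it joins the host's SCF ubiquitin ligase, built on Skp1 and Cul1, and brings to it any protein fused to the auxin-inducible degron, AID. BirA is a bacterial ligase that attaches biotin to proteins with an acceptor peptide. E14 cells are a male line, and embryonic stem cells kept for long in culture are known for variable imprinting, loss of the Y chromosome and gains of whole chromosomes or chromosome arms.

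The 4sU libraries held 14780004, 9488350 and 10882199 mouse counts in Tir1/BirA cells of projects 1, 2 and 3, against 15851179, 10541487 and 11829774 in WT cells, over the 25257 genes listed in all 3 tables. Of these, 14181 passed a filter on low counts and were tested. Levels are given as CPM, counts scaled to a common library size of 1e6 reads by the trimmed mean of M-values (TMM). A log2 fold change is Tir1/BirA over WT from edgeR's quasi-likelihood test with the project as a block, and a gene is called where the Benjamini-Hochberg adjusted p over all 14181 genes is under 0.05. The 4 genes targeted in the mutants were not called: Tada3 had a log2 fold change of 0.16, Yeats2 of 0.05, Supt7l of -0.04 and Zzz3 of 0.11. Of the markers of embryonic stem cells, Nanog and Esrrb were high in both lines. Others were lower in 4sU RNA, with 40.38 to 60.75 CPM for Pou5f1 over the 6 libraries, 8.13 to 16.48 CPM for Dppa5a and 0.76 to 4.59 CPM for Utf1. CPM takes no account of gene span. In total RNA of project 1, Pou5f1 had 676.9 CPM in Tir1/BirA cells and 607.0 CPM in WT cells, and Nanog 533.5 and 623.2 CPM. Dppa5a had 409.9 and 327.1 CPM there, and Utf1 5.77 and 5.59 CPM. Nanog lay between 195.6 and 255.3 CPM in Tir1/BirA cells and between 177.2 and 237.2 CPM in WT cells, and Esrrb between 706.5 and 825.7 CPM and between 748.5 and 783.4 CPM. Of 15 fibroblast and feeder markers in the tables, 5 reached the filter, led by Fn1 at 776.2 to 928.1 CPM in Tir1/BirA cells and 721.3 to 785.4 CPM in WT cells. None was called. Vim had 45.2, 44.0 and 44.9 CPM in Tir1/BirA cells, against 17.4, 32.7 and 30.2 CPM in WT cells, without overlap, as for 12.9% of all genes. Its log2 fold change was 0.79 (edgeR adjusted p = 0.119), and it was called higher under scaling by spike-in RNA (adjusted p = 0.00243). Col5a1 was at -0.45, called lower under that scaling (adjusted p = 0.0189), Pdgfrb at -0.56 and Pdgfra at 0.38. Dcn had no count in Tir1/BirA cells and at most 1 in WT cells. Col1a1, Col1a2 and Acta2 had 17, 46 and 33 counts in Tir1/BirA cells and 35, 32 and 30 counts in WT cells of project 2, and at most 5 in either line of the other projects.

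The plain WT libraries of projects 2 and 3 stood apart along the distal parts of 2 chromosomes. From Tdh to the last gene of chromosome 14 (chr14:63492347-124677127, mm10), the median log2 ratio of Tir1/BirA over WT over 167 genes was 0.01 in project 1, -0.51 in project 2 and -0.53 in project 3, that is 0.703-fold and 0.692-fold in projects 2 and 3. From Alk to the last gene of chromosome 17 (chr17:71869442-94877497), the median over 83 genes was -0.04 in project 1, 0.64 in project 2 and 0.78 in project 3, that is 1.56-fold and 1.72-fold in projects 2 and 3. In project 3, 161 of the 167 genes on chromosome 14 were lower in Tir1/BirA cells and 82 of the 83 on chromosome 17 were higher. In project 1 the same regions split evenly, with 81 of 167 genes lower and 37 of 83 higher. The remainder of both chromosomes had medians between -0.02 and 0.05 in every project. The borders were placed between neighbouring genes, Gata4 and Tdh on chromosome 14 and Clip4 and Alk on chromosome 17, where 2 medians best described projects 2 and 3, after the pattern had been seen. Among 248 windows of 10 Mb with at least 15 genes, 6 had a median past 0.3 in size in both projects 2 and 3, and all 6 overlap these 2 regions.

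**Figure D1:**
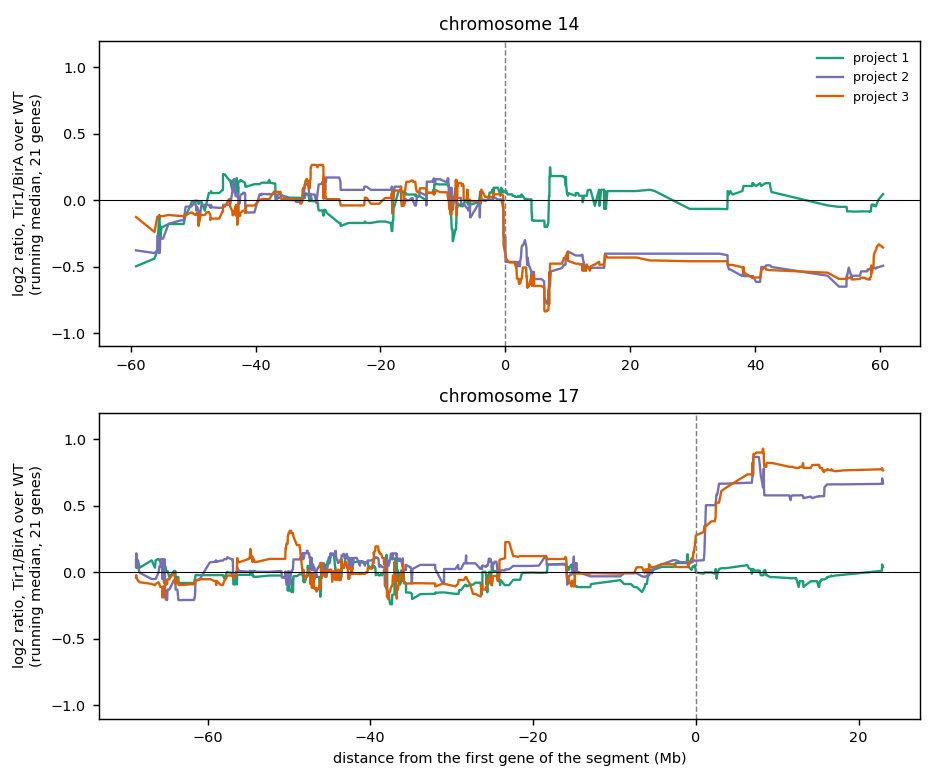
Running median over 21 genes of the log2 ratio of Tir1/BirA over WT in each project, against the distance in Mb from the first gene of the region on chromosome 14 (top) and on chromosome 17 (bottom). Past the dashed line, projects 2 and 3 leave 0 on both chromosomes, with medians of -0.51 and -0.53 on chromosome 14 and 0.64 and 0.78 on chromosome 17, while project 1 stays at 0.01 and -0.04.

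Set against the mean of both WT lines of project 1, the Tir1/BirA libraries had chromosome 14 medians of 0.00, 0.01 and 0.05 and chromosome 17 medians of -0.02, 0.04 and 0.07 in projects 1 to 3. The 6 AID libraries lay between 0.00 and 0.10 on chromosome 14 and between -0.01 and 0.10 on chromosome 17. The 2 Supt7l-/- clones had 0.60 and 0.60 on chromosome 14, with -0.86 and -0.80 on chromosome 17. Plain WT cells had 0.49 in project 2 and 0.56 in project 3 on chromosome 14, and -0.64 and -0.66 on chromosome 17. All other genes had medians between -0.01 and 0.01 in each of the 14 libraries. Thus the plain WT libraries of projects 2 and 3 and the Supt7l-/- libraries are the ones that depart, and the Tir1/BirA line is alike in all 3 projects. DNA copy number was not measured, and the part of such a change in these values was not tested. Genes of these regions are pointed out below with their project 1 values, and counts are given with and without them.

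**Figure D2:**
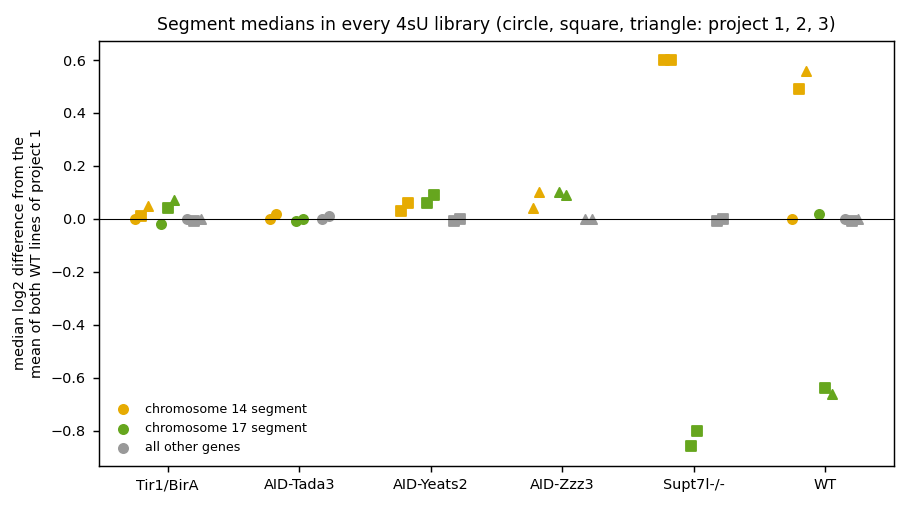
Median log2 difference of each 4sU library from the mean of both WT lines of project 1, over the genes of the chromosome 14 region (yellow), of the chromosome 17 region (green) and all other genes (grey), with circles, squares and triangles for projects 1, 2 and 3. The Supt7l-/- libraries and the plain WT libraries of projects 2 and 3 lie between 0.49 and 0.60 on chromosome 14 and between -0.86 and -0.64 on chromosome 17, and all others within 0.10 of 0.

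Few genes were called as different between the lines. In Tir1/BirA cells 62 of 14181 genes rose (0.437%) and 114 fell (0.804%), 1.24% in either direction, and 1982 genes had an unadjusted p under 0.05. The falls were the larger changes: 28 genes fell and 4 rose by more than 2-fold. All 176 called genes moved the same way in the 3 projects, as 35.6% of all genes did, and for 140 of them the 3 libraries of the lines did not overlap, as for 12.9% of all genes. Of the 176, 57 had an adjusted p above 0.04, close to the threshold. Called genes were long, with a median span of 98284 bases for rises and 117904 bases for falls, against 26341 bases for genes not called. Protein-coding genes made up 59 of the rises and 107 of the falls. In the region of chromosome 14, 10 of 167 genes fell and none rose, and in that of chromosome 17, 2 of 83 rose and none fell. Without project 1, 110 of 165 genes fell on chromosome 14 and 62 of 82 rose on chromosome 17. A fit without the genes of both regions called 78 rises and 132 falls. The count depends on the projects kept: without project 2 no gene rose and 3 fell, and without project 1 540 rose and 688 fell. A joint fit of the 14 4sU libraries, which takes its spread from the mutants too, called 273 rises (1.93%) and 362 falls (2.55%). Scaling by spike-in RNA moved the median of all genes by -0.107 on the log2 scale, to -0.112 against -0.005 under TMM, and called 71 rises (0.501%) and 575 falls (4.05%), so that 10.99% of calls were rises in place of 35.23%.

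**Figure D3:**
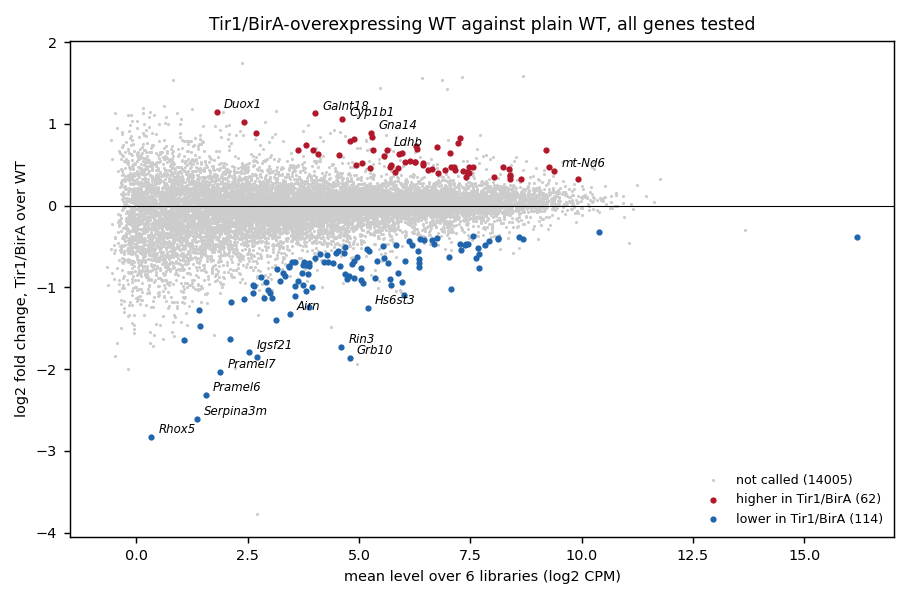
Log2 fold change of Tir1/BirA over WT from the edgeR fit against the mean level over the 6 libraries in log2 CPM, with rises in red, falls in blue and genes not called in grey. The 62 rises reach 1.15 for Duox1, while the 114 falls reach -2.82 for Rhox5 and include Grb10 and Rin3 at mid levels.

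The amount of mouse 4sU RNA per spike-in RNA was close in both lines within each project. Spike-in cells were Drosophila S2 in project 1 and S. pombe in projects 2 and 3. The ratio of mouse to spike-in library size was 7.19 in Tir1/BirA cells and 8.25 in WT cells in project 1, 6.70 and 6.66 in project 2, and 12.9 and 14.1 in project 3. Tir1/BirA cells thus had 87.1%, 101% and 91.8% of the WT value, a mean log2 ratio of -0.10 ± 0.105 (SD, n = 3 pairs). An exact permutation test over swaps within projects gave a two-sided p of 0.5, where the smallest p that 3 pairs allow is 0.25.

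Among the named genes the smallest adjusted p-values were those of Rin3 and Grb10, which also stayed called under each of the 11 alternative settings run. Grb10 encodes an adaptor that restrains insulin and insulin-like growth factor receptor signalling and is imprinted. Grb10 (chr11:11930508-12038683) had 9.46, 15.0 and 11.9 CPM in Tir1/BirA cells of projects 1 to 3, against 43.7, 44.1 and 41.7 CPM in WT cells. All 3 Tir1/BirA libraries lay far below all 3 WT libraries, a log2 fold change of -1.86 ± 0.134 (SE, edgeR adjusted p = 0.000391). Since whole cultures were measured, fewer cells that make an RNA and less of it per cell cannot be told apart. In total RNA of project 1 Grb10 had 31.7 CPM in Tir1/BirA cells and 57.3 CPM in WT cells. The AID libraries all lay below the plain WT level. In AID-Tada3 cells Grb10 had 8.79 and 8.37 CPM in clones 1 and 2, with 23.5 and 17.5 CPM in AID-Yeats2 and 18.8 and 31.2 CPM in AID-Zzz3, while the Supt7l-/- clones had 46.0 and 51.5 CPM, on a scale set over all 14 libraries.

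Rin3 encodes an exchange factor for Rab5-type small GTPases of the endocytic pathway. Rin3 (chr12:102283048-102390855) had 11.2, 10.4 and 12.2 CPM in Tir1/BirA cells, against 38.7, 33.3 and 39.7 CPM in WT cells. The libraries of a line were close to each other and the lines were separate, with a log2 fold change of -1.73 ± 0.107 (SE, edgeR adjusted p = 0.000273). Total RNA of Rin3 was 2.56 CPM in Tir1/BirA cells and 12.4 CPM in WT cells. Rin3 had between 8.62 and 19.5 CPM in the 6 AID libraries and 55.2 and 44.1 CPM in the Supt7l-/- clones.

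The largest falls were of genes at low levels. Rhox5, an X-linked homeobox gene that DNA methylation silences in many cells, had 7, 4 and 0 counts in Tir1/BirA cells of projects 1 to 3, against 36, 27 and 22 counts in WT cells. These counts gave a log2 fold change of -2.82 ± 0.506 (edgeR adjusted p = 0.0340). Serpina3m, of a family of serine protease inhibitors with many close paralogs, had 8, 6 and 11 counts in Tir1/BirA cells, against 102, 44 and 32 counts in WT cells (log2 fold change -2.61, adjusted p = 0.0168). Every WT library had more counts of Rhox5 and Serpina3m than every Tir1/BirA library. Without project 2, as for nearly all genes, neither remained called.

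Pramel7 and Pramel6 are neighbours on chromosome 2, with 9472 bases between them, and fell together. Both belong to the Prame family of leucine-rich repeat proteins of the inner cell mass, and Pramel7 is known in the mouse to bring about the degradation of Uhrf1, a factor that maintains DNA methylation. Pramel7 (chr2:87489087-87497093) had 1.49, 1.68 and 1.22 CPM in Tir1/BirA cells, against 6.76, 6.27 and 4.82 CPM in WT cells. Pramel6 (chr2:87506565-87510872) had 0.676, 0.840 and 1.49 CPM in Tir1/BirA cells, against 6.27, 4.56 and 3.78 CPM in WT cells. The log2 fold changes were -2.03 ± 0.227 for Pramel7 (edgeR adjusted p = 0.00615) and -2.31 ± 0.350 for Pramel6 (adjusted p = 0.0176). In the clones, Pramel7 had 0.806 and 0.733 CPM in AID-Tada3, 5.46 and 5.76 CPM in AID-Yeats2, 2.06 and 3.78 CPM in AID-Zzz3 and 13.5 and 10.5 CPM in Supt7l-/-. Reads of such close paralogs may be split between them by the counting. Their promoters, from 250 bases before to 50 bases after the gene start in RefSeq (GRCm38.p6), are shown because the neighbours moved together. The RefSeq start of Pramel7 lies 4675 bases inside the gene as the tables list it, so its window and CpG count are those of an internal start, while that of Pramel6 is the start in the tables. CpG dinucleotides, the sites of DNA methylation, are in capitals.
Pramel7 (chr2:87492369-87492668, minus strand): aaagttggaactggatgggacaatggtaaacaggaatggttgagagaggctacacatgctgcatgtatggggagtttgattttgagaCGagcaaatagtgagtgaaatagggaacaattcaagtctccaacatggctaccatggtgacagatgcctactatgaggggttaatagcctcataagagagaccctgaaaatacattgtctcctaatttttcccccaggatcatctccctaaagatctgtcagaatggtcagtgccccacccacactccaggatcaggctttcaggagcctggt
Pramel6 (chr2:87506315-87506614, plus strand): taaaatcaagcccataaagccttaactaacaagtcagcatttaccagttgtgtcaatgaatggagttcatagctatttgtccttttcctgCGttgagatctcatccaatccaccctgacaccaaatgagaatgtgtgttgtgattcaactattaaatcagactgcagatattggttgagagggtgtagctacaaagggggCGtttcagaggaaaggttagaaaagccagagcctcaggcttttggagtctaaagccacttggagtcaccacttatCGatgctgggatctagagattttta
Pramel7 holds 1 CpG and Pramel6 3, against a median of 7 over the 27025 promoters of the table, of which 5.78% hold fewer than Pramel7 and 23.8% fewer than Pramel6.

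The other large falls were of genes of varied kinds. Igsf21, an adhesion protein of synapses, had 1.35, 2.62 and 3.83 CPM in Tir1/BirA cells, against 4.84, 9.21 and 12.99 CPM in WT cells. The level differed between projects in both lines, yet the log2 ratio was -1.81, -1.80 and -1.75 in projects 1 to 3 (fit -1.80, edgeR adjusted p = 0.00413). Hs6st3, a sulfotransferase of heparan sulfate, lies in the chromosome 14 region and had 14.3, 28.6 and 22.2 CPM in Tir1/BirA cells, against 31.2, 63.7 and 60.7 CPM in WT cells (log2 fold change -1.25, adjusted p = 0.000918). Its log2 ratio of -1.13 in project 1 was far beyond the regional median of 0.01 there. Rapgef3, the cAMP-driven exchange factor for Rap1 known as Epac1, had a log2 fold change of -1.19 with an adjusted p of 0.0448, Sh3tc2, a Rab11 effector, of -1.47 (adjusted p = 0.0466), and Hdgfl3 of -1.24 (adjusted p = 0.0100). Slco3a1, an organic anion transporter, had -1.15 and Lrrc8b, a subunit of the volume-regulated anion channel, had -1.14. Emp1, an epithelial membrane protein, had -1.13 and Acsl6, which activates long-chain fatty acids, had -1.103. In total RNA of project 1, which has 1 library of each line, the log2 ratio of Tir1/BirA over WT was negative for the 7 of these 9 genes with at least 20 counts in all, between -2.13 for Igsf21 and -1.12 for Lrrc8b. Sh3tc2 and Slco3a1 were too low there to compare, with 1 and 5 counts in Tir1/BirA cells and 7 and 8 counts in WT cells. Igsf21, Hdgfl3 and Rapgef3 overlap other genes, and the strand setting of the counting is not given in the sources used here.

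Among called genes of other types, the 5 largest changes were falls. Gm11427, a pseudogene on chromosome 11, had 2.43, 3.57 and 2.43 CPM in Tir1/BirA cells, against 9.06, 14.6 and 7.31 CPM in WT cells (log2 fold change -1.85, edgeR adjusted p = 0.00315). The lincRNAs Gm31415 and 4933436I20Rik had log2 fold changes of -1.63 and -0.94, the pseudogene Gm20426 of -1.05 and Airn of -1.32. Gm11427 and Airn overlap other genes.

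**Figure D4:**
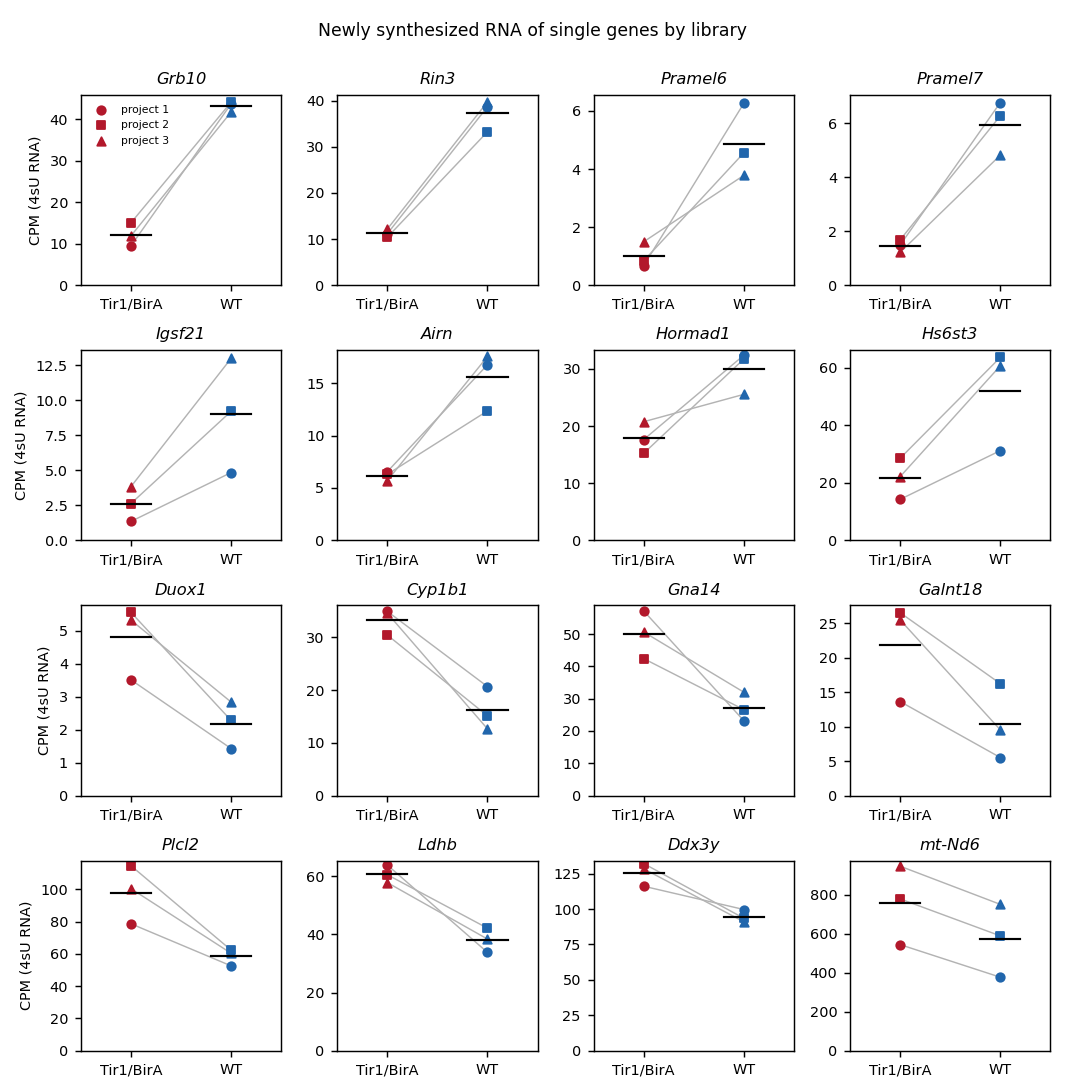
CPM of newly synthesized RNA of 16 genes in the 3 Tir1/BirA libraries (red) and the 3 WT libraries (blue), with a grey line joining the libraries of a project, a black bar at the mean and symbols for projects 1 to 3. The top 8 genes fell and the bottom 8 rose in Tir1/BirA cells, and in each the lines run the same way in all 3 projects, as for Grb10 with at most 15.0 CPM in Tir1/BirA cells and at least 41.7 CPM in WT cells.

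The largest rises among called genes were smaller than the largest falls. Duox1, an enzyme that makes hydrogen peroxide at the membrane, had 3.51, 5.56 and 5.33 CPM in Tir1/BirA cells, against 1.43, 2.28 and 2.84 CPM in WT cells (log2 fold change 1.15 ± 0.226, edgeR adjusted p = 0.0448). Galnt18, of the family that starts mucin-type O-glycans, had 13.6, 26.6 and 25.5 CPM in Tir1/BirA cells, against 5.52, 16.2 and 9.55 CPM in WT cells (log2 fold change 1.13 ± 0.157, adjusted p = 0.0116). The lines overlapped for Galnt18, because project 1 was low in both, and were apart for Duox1. Gna14, a Gq-class G protein subunit, had 57.2, 42.4 and 50.7 CPM in Tir1/BirA cells, against 23.2, 26.6 and 32.0 CPM in WT cells (log2 fold change 0.89 ± 0.135, adjusted p = 0.0225). Mtus2, a microtubule-binding protein, had 35.0, 60.2 and 57.3 CPM in Tir1/BirA cells, against 21.8, 34.7 and 27.6 CPM in WT cells (log2 fold change 0.84, adjusted p = 0.00781). For Gna14 and Mtus2 each Tir1/BirA library was above each WT library.

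The other leading rises had log2 fold changes between 0.69 and 1.03. Olfr45, an olfactory receptor, had 1.03 and Nod2, a sensor of bacterial cell wall peptides, had 0.89. Ccbe1, which helps to process the lymphatic growth factor Vegfc, rose by 0.83 and had 183.8 to 212.9 CPM in Tir1/BirA cells, against 93.4 to 125.7 CPM in WT cells. Pou2f3, the transcription factor of tuft cells, had 0.82, and Ephb1, an ephrin receptor, had 0.78. Dmgdh, a mitochondrial enzyme of choline breakdown, had 0.76, with 156.1 to 208.0 CPM in Tir1/BirA cells, against 99.6 to 117.0 CPM in WT cells. Lrmp had 0.74, Plcl2, a phospholipase C relative without that activity, had 0.73, Pdzrn3, a ubiquitin ligase, had 0.72 and Dpp6, an auxiliary subunit of Kv4 potassium channels, had 0.69. The edgeR adjusted p-values of these 10 genes lay between 0.00739 for Plcl2 and 0.0412 for Nod2. Mtus2, Ccbe1, Ephb1, Dmgdh, Lrmp, Pdzrn3 and Dpp6 overlap other genes. In total RNA of project 1 the log2 ratio was -0.63 for Nod2, with 20 counts in Tir1/BirA cells and 25 in WT cells. It was -0.19 for Mtus2, -0.15 for Lrmp, 0.04 for Ccbe1 and 0.05 for Dpp6. The other leading rises lay between 0.19 for Dmgdh and 0.91 for Galnt18, leaving out Olfr45, with 4 and 2 counts.

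Total RNA, available for project 1 with 1 library of each line, gives the level of the same genes at steady state. Of 108 falls measured there, all 108 were lower in Tir1/BirA total RNA and 78 were lower by more than 1.5-fold, a size reached downwards by 10.5% of 12048 genes. Of 61 rises measured, 47 were higher and 17 by more than 1.5-fold, reached upwards by 7.8%. The median log2 ratio in total RNA was -0.87 for the falls and 0.37 for the rises, beside -0.73 and 0.51 in 4sU RNA. The total RNA ratio of all genes differed with gene span, with a median of 0.17 under 5 kb, 0.00 from 20 to 100 kb, -0.21 from 100 to 300 kb and -0.28 above 300 kb, and called genes of both directions were long. Whether total RNA differed in how far it followed the falls and the rises was not tested. The 4sU and total libraries of project 1 come from the same line pair, so this is no independent repeat of the difference.

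Gene lists were read by their called members and median log2 fold change, beside the median of -0.005 over all genes tested and the 0.437% of all genes called higher and 0.804% called lower. Of the 176 called genes, 13 belong to at least 1 of the 35 lists. The aryl hydrocarbon receptor, a ligand-activated transcription factor that dimerises with Arnt, induces detoxifying P450 enzymes and its own repressors. Of 10 genes of that pathway tested, 2 rose, none fell and 8 had positive values, with a median of 0.20 (0.20, 0.18 and 0.25 in projects 1 to 3). Cyp1b1, a P450 enzyme and receptor target, had 34.9, 30.4 and 34.6 CPM in Tir1/BirA cells, against 20.7, 15.1 and 12.6 CPM in WT cells (log2 fold change 1.06 ± 0.138, edgeR adjusted p = 0.00984). Cyp1b1 lies in the chromosome 17 region. Its log2 ratio was 0.76 in project 1, where the regional median was -0.04, 1.01 in project 2 and 1.45 in project 3. Cyp1a1, the classical target on chromosome 9, had 111.9, 92.2 and 66.4 CPM in Tir1/BirA cells, against 64.6, 71.7 and 49.96 CPM in WT cells (log2 fold change 0.53 ± 0.0975, adjusted p = 0.0379). Within each project Cyp1a1 was higher in Tir1/BirA cells, while the lines overlapped across projects. The targets Tiparp, a repressor of the receptor (0.34, edgeR adjusted p = 0.0538), and Ahr itself (0.35, adjusted p = 0.156) were not called. For both, all 3 Tir1/BirA libraries were above all 3 WT libraries, while 12.9% of all genes had no overlap in either direction. The repressor Ahrr (-0.02) and the partner Arnt (0.07) were not called either. In total RNA Cyp1a1 was 649.0 CPM in Tir1/BirA cells and 472.9 CPM in WT cells, and Cyp1b1 74.2 and 47.7 CPM.

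The promoters of both P450 genes (RefSeq, GRCm38.p6) are shown with the core of the receptor's binding motif, GCGTG or its complement CACGC, in capitals. The RefSeq start of Cyp1a1 lies 9685 bases inside the gene as the tables list it, so its window is that of an internal start.
Cyp1b1 (chr17:79715012-79715311, minus strand): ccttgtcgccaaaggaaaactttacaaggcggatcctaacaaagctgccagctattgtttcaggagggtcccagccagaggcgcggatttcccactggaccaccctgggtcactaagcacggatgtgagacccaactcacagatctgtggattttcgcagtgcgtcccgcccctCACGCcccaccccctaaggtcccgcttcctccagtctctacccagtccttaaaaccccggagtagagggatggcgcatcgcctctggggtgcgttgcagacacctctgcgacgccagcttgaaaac
Cyp1a1 (chr9:57697363-57697662, plus strand): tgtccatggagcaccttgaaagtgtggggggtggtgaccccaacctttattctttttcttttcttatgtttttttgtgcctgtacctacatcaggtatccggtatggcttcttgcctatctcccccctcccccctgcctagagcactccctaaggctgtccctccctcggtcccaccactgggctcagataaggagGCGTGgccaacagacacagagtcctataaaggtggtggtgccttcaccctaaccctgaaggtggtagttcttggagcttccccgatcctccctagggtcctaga
Each holds 1 match. The motif, searched on both strands, was found in 32.5% of the 27025 promoters and in 7 of the 11 list members that matched the table by symbol, out of 15 in the list.

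Imprinted genes, transcribed from 1 parental copy, held 2 falls and a wide spread of values. Of 38 tested none rose and 2 fell, Grb10 and Airn, with a median of 0.01. Airn is the long antisense RNA that silences Igf2r on its own allele. It had 6.55, 6.30 and 5.70 CPM in Tir1/BirA cells, against 16.8, 12.3 and 17.5 CPM in WT cells (log2 fold change -1.32 ± 0.161, edgeR adjusted p = 0.00781), and 1.92 and 16.4 CPM in total RNA. Igf2r, which it overlaps, was at -0.24 on the log2 scale (adjusted p = 0.243). Reads of the 2 strands can be told apart only if the counting used strand. In AID-Tada3 cells Airn had 27.7 and 8.07 CPM, with 21.6 and 22.7 CPM in AID-Yeats2, 25.3 and 3.17 CPM in AID-Zzz3 and 16.4 and 16.3 CPM in Supt7l-/-, and the clones of AID-Tada3 and of AID-Zzz3 differed from each other by more than the WT lines did. Plagl1, a paternally expressed zinc finger gene, had 223.8, 232.0 and 256.9 CPM in Tir1/BirA cells, against 100.4, 86.4 and 57.7 CPM in WT cells, and a log2 fold change of 1.57 that was not called (adjusted p = 0.0723). Plagl1 had 59.4 to 227.8 CPM in the 6 AID libraries and 39.9 and 28.2 CPM in Supt7l-/-.

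The maternally expressed RNAs of the Dlk1-Dio3 locus on chromosome 12 differed between the lines in projects 2 and 3. Meg3, whose locus produces many small RNAs and whose loss is known in cultured stem cells, had 168.0, 192.4 and 172.8 CPM in Tir1/BirA cells of projects 1 to 3, against 132.6, 54.4 and 37.2 CPM in WT cells. Rian, downstream of Meg3, had 518.7, 618.6 and 637.4 CPM in Tir1/BirA cells, against 433.1, 154.6 and 113.0 CPM in WT cells. Mirg, farther along, had 163.4, 186.4 and 150.6 CPM in Tir1/BirA cells, against 127.7, 39.7 and 34.7 CPM in WT cells. The Tir1/BirA line was even over the projects and the plain WT libraries of projects 2 and 3 were low, so the log2 ratio of Rian was 0.26, 2.00 and 2.49. No member was called, with fitted log2 fold changes of 1.43 for Meg3, 1.59 for Rian and 1.53 for Mirg and edgeR adjusted p-values of 0.446, 0.486 and 0.448. In the clones Rian had 637.1 and 560.3 CPM in AID-Tada3, 629.0 and 695.8 CPM in AID-Yeats2, 894.9 and 453.6 CPM in AID-Zzz3 and 29.0 and 25.7 CPM in Supt7l-/-. The libraries low in these RNAs are thus those that departed on chromosomes 14 and 17. Whether the 2 patterns have a shared origin was not tested.

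Germline genes that DNA methylation keeps silent in other cells had mostly negative values. Of 25 tested none rose, 3 fell (Hormad2, Rhox5 and Hormad1) and 5 had positive values, with a median of -0.49 (-0.47, -0.36 and -0.09 in projects 1 to 3). Hormad1 and Hormad2 encode proteins of the meiotic chromosome axis. Hormad1 had 17.6, 15.2 and 20.8 CPM in Tir1/BirA cells, against 32.4, 31.7 and 25.5 CPM in WT cells (log2 fold change -0.74 ± 0.146, edgeR adjusted p = 0.0495). Hormad2 had 47.9, 67.3 and 66.7 CPM in Tir1/BirA cells, against 60.7, 121.6 and 124.0 CPM in WT cells (log2 fold change -0.70 ± 0.113, adjusted p = 0.0273). Hormad1 differed least in project 3 and Hormad2 least in project 1. Smc1b, the meiotic cohesin subunit (-0.49, adjusted p = 0.0539), Mov10l1, a helicase of the piRNA pathway (-0.91, adjusted p = 0.0805), and Sycp1, of the synaptonemal complex (-0.79, adjusted p = 0.104), were not called. Of 18 genes of DNA methylation and demethylation none was called, with a median of -0.01. Spike-in scaling called 4 of the 18 lower, beside 4.05% of all genes, and the joint fit called 1 lower, beside 2.55%. The promoters of Hormad1 and Hormad2 (RefSeq, GRCm38.p6) are shown with CpG in capitals, for contrast with the Pramel promoters above.
Hormad1 (chr3:95559427-95559726, plus strand): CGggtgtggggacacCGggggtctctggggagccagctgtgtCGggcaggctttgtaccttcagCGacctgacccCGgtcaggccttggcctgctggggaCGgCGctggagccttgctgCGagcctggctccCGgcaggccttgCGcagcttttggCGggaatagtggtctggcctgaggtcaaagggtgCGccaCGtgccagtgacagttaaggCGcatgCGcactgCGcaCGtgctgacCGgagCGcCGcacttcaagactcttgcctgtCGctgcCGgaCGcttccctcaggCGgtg
Hormad2 (chr11:4441033-4441332, minus strand): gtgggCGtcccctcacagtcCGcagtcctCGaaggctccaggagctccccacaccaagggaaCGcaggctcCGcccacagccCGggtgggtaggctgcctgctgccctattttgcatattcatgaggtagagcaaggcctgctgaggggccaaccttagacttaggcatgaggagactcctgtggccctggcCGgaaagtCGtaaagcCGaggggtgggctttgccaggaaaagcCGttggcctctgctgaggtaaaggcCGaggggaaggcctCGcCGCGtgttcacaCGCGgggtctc
Hormad1 holds 24 CpG and Hormad2 16, and the 35 members of the list with a promoter in the table, out of 39, hold a median of 17.

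Genes of the Y chromosome were read as a check of its presence. Eif2s3y, a translation factor subunit, and Ddx3y, an RNA helicase, rose among 6 tested, and none fell. Of the 6, 3 had positive values and 2 were negative in all 3 projects. The median was -0.003 and the lowest value -0.574. Spike-in scaling called 2 higher and 1 lower. Ddx3y had 116.1, 132.1 and 128.4 CPM in Tir1/BirA cells, against 99.7, 93.5 and 91.0 CPM in WT cells (log2 fold change 0.40, edgeR adjusted p = 0.0492). Under spike-in scaling Ddx3y was not called (0.30, adjusted p = 0.0888), and it stayed called in 5 of the 11 alternatives, against 6 for Eif2s3y. Eif2s3y had 76.5, 94.2 and 101.0 CPM in Tir1/BirA cells, against 64.0, 63.8 and 59.2 CPM in WT cells (log2 fold change 0.53, adjusted p = 0.0435). Uty, a demethylase-related gene of the same arm, was at 0.46 on the log2 scale (adjusted p = 0.0577). Both WT lines therefore expressed Y genes in every project, whereas Ddx3y had 0.0 CPM in both Supt7l-/- clones. Eif2s3y and Ddx3y have X-linked copies close in sequence, and reads may be split between them.

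The mitochondrial genome took a larger share of the counts in Tir1/BirA cells of each project. Mitochondrial genes held 0.81%, 0.712% and 0.721% of counts in Tir1/BirA cells of projects 1 to 3, against 0.496%, 0.475% and 0.657% in WT cells. All 7 protein-coding members tested were positive in each project, with medians of 0.75, 0.58 and 0.09 in projects 1 to 3, and 1 was called. The called gene, mt-Nd6, the one protein gene on the light strand, had 544.8, 779.5 and 947.3 CPM in Tir1/BirA cells, against 377.5, 589.7 and 751.4 CPM in WT cells (log2 fold change 0.42 ± 0.0636, edgeR adjusted p = 0.0161). In total RNA of project 1 mt-Nd6 had 6.57 CPM in Tir1/BirA cells and 3.59 CPM in WT cells. It overlaps mt-Nd5, and reads of the 2 strands can be told apart only if the counting used strand. The complex IV subunit gene mt-Co1 had 0.43 (edgeR adjusted p = 0.0675).

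The 2 lists tied to the transgenes held 1 called gene each, beside 1.24% of all genes called. Of 20 genes of the SCF ubiquitin ligase that Tir1 joins, Cand1, which exchanges F-box proteins on Cul1, was the 1 that rose and none fell, and the median was 0.08. Cand1 had 332.6, 393.3 and 410.5 CPM in Tir1/BirA cells, against 261.4, 310.8 and 301.7 CPM in WT cells (log2 fold change 0.38 ± 0.0628, edgeR adjusted p = 0.0244), and was not called under spike-in scaling (0.27, adjusted p = 0.0764). Skp1a had 0.16 (adjusted p = 0.371). Of 11 genes of biotin use, Pcca, the biotin-carrying subunit of propionyl-CoA carboxylase, was the 1 that fell and none rose; the list's median was 0.02. Pcca lies in the chromosome 14 region, where 5.99% of genes were called, and its log2 ratio was -0.41 in project 1, -0.52 in project 2 and -0.38 in project 3 (fit -0.44, adjusted p = 0.0161). Pcca overlaps Ggact. Hlcs, the cell's own biotin ligase, had 0.03 (edgeR adjusted p = 0.923). None of 29 SAGA and ATAC subunit genes was called, with a median of 0.05.

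Glycolysis held 1 further rise among 28 genes. Ldhb, the B subunit of lactate dehydrogenase, had 63.8, 60.4 and 57.8 CPM in Tir1/BirA cells, against 33.8, 42.1 and 38.4 CPM in WT cells (log2 fold change 0.68 ± 0.0997, edgeR adjusted p = 0.0145). All Tir1/BirA libraries were above all WT libraries, and total RNA had 231.3 CPM in Tir1/BirA cells and 93.2 CPM in WT cells. The median of the list was 0.12.

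No member was called in the lists of the embryonic stem cell state and its signals. The medians were 0.04 over 27 naive pluripotency genes, 0.01 over 14 core pluripotency and Dppa genes, 0.01 over 16 formative and primed genes, and 0.03 over 14 genes of the LIF and Stat3 pathway. Naive genes ranged from -0.27 for Klf5 to 0.63 for Gbx2 (edgeR adjusted p = 0.741 and 0.215). Klf5 lies in the chromosome 14 region, with log2 ratios of 0.40, -0.57 and -0.62 in projects 1 to 3. Tdh, of the same list and region, had 0.15, -0.27 and -0.34. Several lists shifted in project 1 alone or in opposite directions between projects. Wnt targets had medians of 0.73, 0.14 and -0.03 in projects 1 to 3, with Axin2 at 120.7, 89.0 and 88.0 CPM in Tir1/BirA cells, against 62.4, 82.2 and 89.9 CPM in WT cells. Targets of ERK signalling had 0.27, -0.06 and -0.48. Replication-dependent histone genes had 0.37, -0.12 and -0.50, and ribosomal protein genes 0.20, 0.24 and -0.13. Cell cycle genes had 34 positive values of 40, with a median of 0.09 and none called. None of 31 p53 targets, 15 heat shock genes, 20 genes of the unfolded protein response, 24 genes of the amino acid stress response, 26 cholesterol synthesis genes or 10 interferon response genes was called. Among lineage markers, none of 9 primitive endoderm, 2 mesendoderm, 5 neural or 7 trophectoderm genes tested was called, with medians of -0.04, -0.59, 0.05 and -0.28. The trophectoderm median was negative in each project (-0.31, -0.27 and -0.49 in projects 1 to 3). Of the 7 trophectoderm genes, 2 had positive values, up to 0.32, and 4 were negative in all 3 projects. Spike-in scaling called 3 of the 7 lower, Gata3, Eomes and Tead4, beside 4.05% of all genes called lower under that scaling. Gata3 had 4.86, 4.09 and 4.67 CPM in Tir1/BirA cells, against 9.93, 6.65 and 6.97 CPM in WT cells (log2 fold change -0.79, edgeR adjusted p = 0.0748). Eomes, in both the mesendoderm and the trophectoderm list, had 0.811, 1.68 and 1.59 CPM in Tir1/BirA cells, against 2.05, 2.76 and 3.96 CPM in WT cells (-1.12, adjusted p = 0.104). For both genes every Tir1/BirA library lay below every WT library, while 12.9% of all genes had no overlap in either direction. The 2-cell marker genes Zscan4a to Zscan4f had at most 6 counts in a library and were not tested.

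**Figure D5:**
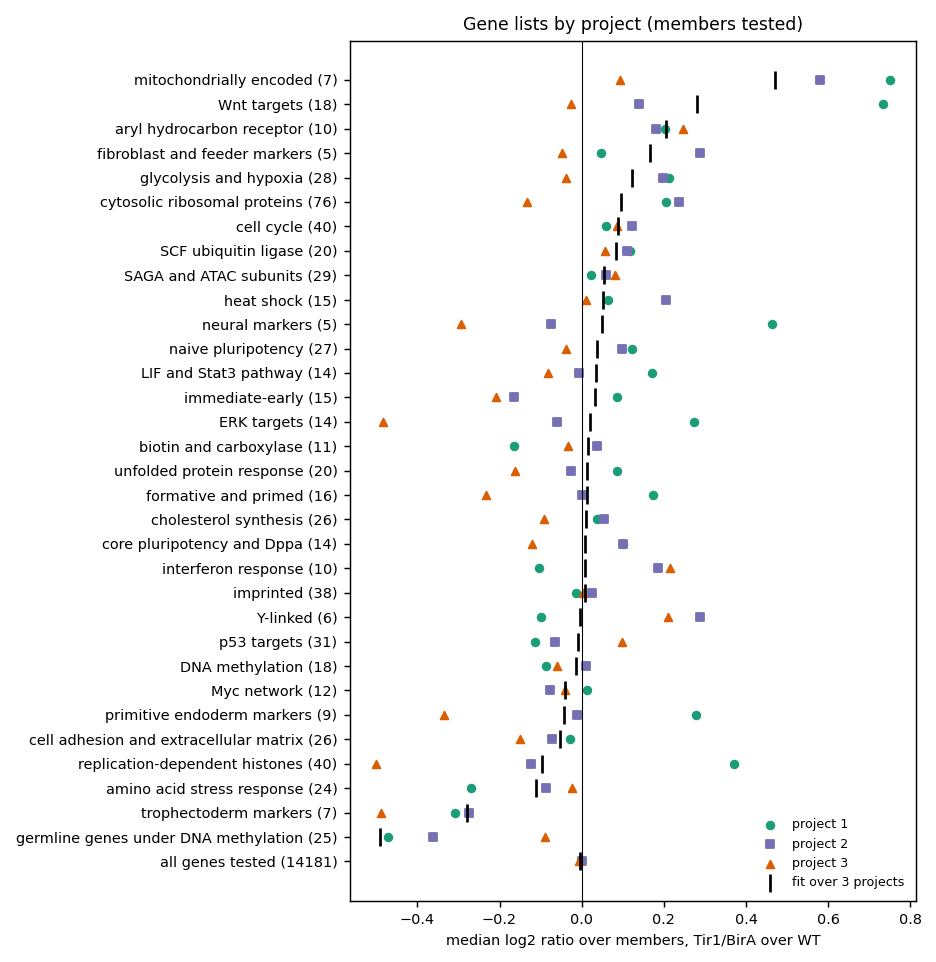
Median log2 ratio of Tir1/BirA over WT over the tested members of each list with at least 5 of them, in projects 1 (circle), 2 (square) and 3 (triangle), and from the fit over the 3 projects (black bar), with the number tested in parentheses. Mitochondrial genes have a fitted median of 0.47, aryl hydrocarbon receptor genes 0.20 with close projects and germline genes -0.49, while Wnt targets range from -0.03 to 0.73.

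Called genes of the 2 chromosome regions differed in how far project 1 shared the change. On chromosome 14, Mbnl2, a splicing regulator, had log2 ratios of -0.69, -0.89 and -0.71 in projects 1 to 3, and Ppp3cc, a catalytic subunit of calcineurin, had -0.761, -1.231 and -1.097. Rhobtb2 had -0.88, -0.54 and -0.83, Slc25a37, the iron importer of mitochondria, had -0.68, -0.87 and -0.66, and Nefm, a neurofilament subunit, had -0.44, -0.74 and -0.93. Dock9, Dgkh and Diaph3 had -0.34, -0.30 and -0.26 in project 1, and between -0.63 and -0.30 in projects 2 and 3. On chromosome 17, Thada had 0.34 in project 1, and 0.82 and 0.90 in projects 2 and 3. All 12 called genes of the regions had the same sign in the 3 projects, as all 176 called genes did. A call over the 3 projects favours genes whose change project 1 shares, so these genes do not stand for their regions. In project 1, 81 of the 167 genes on chromosome 14 were lower and 37 of the 83 on chromosome 17 higher.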

How the data were processed

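For each sequencing project the authors deposited unnormalized counts of reads for mouse genes and for spike-in genes, and these counts alone were used. Per the submitters' processing notes the tools were DESeq2 1.16.1, STAR 2.5.3a, cutadapt 1.10, HTSeq 0.6.1p1, bcl2fastq 2.17.1.14 and Bowtie2 2.2.8, with mm10 for the mouse. Other deposited columns, such as normalized values and the fold changes of mutants, were not used.

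Genes listed in all 3 tables were kept, filtered with filterByExpr (minimum count 10), scaled by TMM, and tested with edgeR 4.0.16 (glmQLFit, robust, glmQLFTest) in R 4.3.3 with the project as a block, which leaves 2 residual degrees of freedom. The spread of each gene was moderated by that of all genes, with a median of 7.89 prior degrees of freedom. P-values were adjusted by Benjamini-Hochberg over all genes tested. Per-project log2 ratios used CPM with a pseudocount of 0.5. Mouse RNA per spike-in RNA was the ratio of TMM effective library sizes, with spike-in genes of at least 10 counts. The pairing by project is given by the labels. Deviations from the line means correlated within projects (0.365, 0.306 and 0.222) and lay between -0.317 and 0.0483 across projects. The fit was tested on simulated data, where it recovered the sizes of the changes made but the share of false calls among its calls was above the nominal level of the threshold.

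Named genes are the 15 largest rises and falls among called protein-coding genes with a mean of at least 1 CPM and the same sign in the 3 projects and under spike-in scaling, the 5 largest changes of other gene types, up to 5 called members of each list, and the targeted genes. The members, the 35 lists and the rule were chosen with earlier results of these data known. The chromosome regions, their called genes, the Dlk1-Dio3 genes and the genes singled out in other lists were chosen after their values were seen. Alternatives were spike-in scaling, DESeq2 1.42.0 size factors, no filter, a floor of 50 counts in each library of 1 of the lines, the DESeq2 Wald test, no block, a joint fit of 14 4sU libraries and leaving out each project. Leaving out 1 library of a pair under the block removes the pair, so the 2 are the same fit. A fit without the chromosome regions was added after the data were seen. Promoters come from RefSeq (GRCm38.p6), and no genome sequence was used.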

Additional observations from a re-analysis of the deposited data

How the results depend on the processing

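All 176 called genes kept their direction under each of the 11 alternatives in which they were fitted (169 with the floor of 50 counts, 164 without the chromosome regions, 176 in the others), and no named gene reversed. Of these 176, 159 stayed called the same way under spike-in scaling, 153 in the joint fit, 139 with DESeq2, 71 without project 3, 11 without the block and 3 without project 2. Counts of rises and falls were 71 and 575 under spike-in scaling, 388 and 472 with no filter on low counts, 32 and 69 with a floor of 50 counts in each library of 1 of the lines, 102 and 115 with DESeq2, and 273 and 362 in the joint fit of 14 libraries. Without the replicate block they were 2 and 10. Leaving out 1 project in turn gave 0 to 540 rises and 3 to 688 falls, the lowest without project 2 and the highest without project 1. The cause of these shifts was not tested. DESeq2 size factors gave 70 and 115, and leaving out the regions of chromosomes 14 and 17 gave 78 and 132. The mean log2 ratio of mouse to spike-in RNA stayed between -0.161 and -0.057. With 3 pairs, a gene near the filter shows only large changes, and 3 counts correspond to 0.203 to 0.316 CPM in Tir1/BirA libraries and 0.189 to 0.285 CPM in WT libraries, limits that cover counting error only.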

Other observations

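Large fitted changes that were not called were listed after their values were seen, as genes past 1.3 in size on the log2 scale with the same sign in the 3 projects and a mean above 3 CPM. There were 12, among them Plagl1 and the RNAs of the Dlk1-Dio3 locus. Efhc2, an X-linked gene of a ciliary protein family, had 8.09, 11.6 and 14.9 CPM in Tir1/BirA cells of projects 1 to 3, against 17.2, 84.1 and 52.02 CPM in WT cells, with 77.3 and 47.1 CPM in AID-Tada3 and 9.86 and 10.7 CPM in Supt7l-/-, on the scale of all 14 libraries (log2 fold change -1.94, edgeR adjusted p = 0.154). Cyp2b23, a P450 enzyme, had 8.71, 11.1 and 12.6 CPM in Tir1/BirA cells, against 42.1, 28.4 and 21.5 CPM in WT cells (-1.49, adjusted p = 0.116). Kcnh8, a potassium channel gene, had 9.32, 6.51 and 7.57 CPM in Tir1/BirA cells, against 0.931, 3.80 and 2.92 CPM in WT cells (1.74, adjusted p = 0.173). Nfix, a transcription factor gene, differed mainly in project 1, with 3.92, 3.78 and 2.80 CPM in Tir1/BirA cells, against 19.98, 4.94 and 4.47 CPM in WT cells (-1.33, adjusted p = 0.223). In each of these genes every Tir1/BirA library was on 1 side of every WT library, as for 12.9% of all genes.

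Called genes were unevenly spread over gene spans. Of 1732 genes spanning 100 to 300 kb, 1.27% rose and 3.23% fell, and of 4274 genes spanning 5 to 20 kb, 0.234% rose and 0.0702% fell. The median level was 78.4 CPM for rises and 25.8 CPM for falls, against 15.4 CPM for genes not called, and its part in this spread was not tested. The median log2 fold change was -0.04 in the longer bin and 0.01 in the shorter.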
